A study of Mus musculus with 20 samples.

Results

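The Armcx family comprises Armcx1 to Armcx6, 6 genes named by symbol, which were looked up in the deposited count tables of HuD-expressing and control mouse NSC-34 cells. The family was selected on measured values, the 3′ end counts of Armcx2 in HuD and control cells. The table of total and polysomal RNA listed 2 of the 6 among 14924 genes, Armcx2 and Armcx5, and the table of 3′ ends listed the same 2 among 9621 genes, with 4 of its 14536 unique 3′ ends. None of the 6 was in the table of sites crosslinked to HuD. Armcx1, Armcx3, Armcx4 and Armcx6 were in none of these tables, and their levels were not analysed here.

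Armcx proteins carry arm-like (armadillo) repeats, and several sit in the outer mitochondrial membrane. The genes lie close together on the X chromosome of placental mammals and derive from Armc10, an autosomal relative. Armcx1 and Armcx3 are known for their part in moving mitochondria along axons, where they act with Miro GTPases and TRAK adaptors that couple mitochondria to kinesin. HuD, encoded by Elavl4, is a neuronal RNA-binding protein that binds U-rich and AU-rich elements, mostly in 3′ untranslated regions, and acts on mRNA stability, polyadenylation and translation.

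NSC-34 is a mouse motor neuron-like hybrid line. HuD cells (Trex-HuD NSC-34) carried a lentiviral Tet repressor and a lentiviral human His-HA-HuD under a CMV promoter with Tet operators. For 3′ end sequencing, POL-Seq and RNA-Seq they were induced with tetracycline at 2 µg/ml for 48 h (the methods name doxycycline). The labels state no treatment for the control cells of these libraries, and the sample titles call them CTRL cells without naming their line. CRAC, which maps crosslinked RNA, used HuD and Trex control cells given tetracycline at 10 µg/ml for 24 h by the labels and methods. The paper's results section instead gives doxycycline at 2 µg/ml for 48 h for CRAC. There were 2 libraries per condition for RNA-Seq (total RNA) and for POL-Seq (RNA of polysome fractions), and 3 per condition for CRAC and for 3′ ends. RNA-Seq and POL-Seq started from cytoplasmic lysates of cycloheximide-treated cells, whereas 3′ end libraries were made from Trizol RNA. No source used here says that the same cultures served both, so culture and assay cannot be told apart where the assays differ.

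Depth was 21296012 to 36284728 counts per RNA-Seq or POL-Seq library and 12986862 to 15751036 per 3′ end library. The 3′ end depth is a sum over ends, so a read near more than 1 listed end counts more than once. This also holds for the summed 3′ end level of any gene whose ends lie that close. Elavl4, the check of the labels, had 87.8 ± 13.6 CPM (counts scaled to library size with TMM) in control and 224 ± 17.7 CPM in HuD total RNA (SD, n = 2), a log2 change of 1.35 (SE 0.15, edgeR adjusted p = 0.0866). In polysomal RNA it had 104 ± 19.9 and 234 ± 12.3 CPM (SD, n = 2). The mouse Elavl4 3′ end lies outside the human construct and checks nothing in the 3′ end libraries, where it had 64.9 ± 22.9 CPM in control and 46.1 ± 12.8 CPM in HuD (SD, n = 3; log2 change -0.49, edgeR adjusted p = 0.921, or -0.47 and 0.0306 with the replicate block), so those are called the libraries labelled HuD. In the table of total and polysomal RNA, 9 of 10 neuronal and motor neuron markers were listed, Mnx1 being the exception, with total RNA levels from 616 CPM (the maximum of Tubb3) down to 0.238 CPM for Stmn2, and Chat, which makes acetylcholine, had no more than 0.544 CPM. Of 8 markers of other cell types 3 were listed, at 0.329 to 7.78 CPM in total RNA. The 3′ end table listed 5 of the 10 neuronal markers, without Chat, Isl1, Mnx1, Nefm and Stmn2, and 2 of the 8 others.

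The last 30 bases of the member transcripts are shown because the 3′ end counts are reads that start within 10 nt of these positions. They were read from GENCODE vM21 transcripts on GRCm38, 5′ to 3′ on the gene's strand, with the polyadenylation hexamer AATAAA in capitals where present. The last of the lines gives the bases that follow the upstream Armcx5 end in the longer Armcx5 transcript, with their first run of A in capitals.
Armcx2, chrX:134804145-134804174, minus strand: catcAATAAAgtgtatgttgcaaatggcaa
Armcx5 downstream end, chrX:135747293-135747322, plus strand: gtttttAATAAAgttgcatgctaaacacaa
Armcx5 upstream end, chrX:135745377-135745406, plus strand: cactgagcccaagactgtgacctggaaagt
Armcx5 after the upstream end, chrX:135745407-135745436, plus strand: AAAAAAAAAgaaagataagactaatgctag

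The Armcx2 end and the downstream Armcx5 end each held AATAAA, starting 26 and 24 nt before the end. The upstream Armcx5 end held neither AATAAA nor ATTAAA in its last 30 bases. Of the 12847 unique 3′ ends of the whole table that matched a vM21 transcript, 60.5% held AATAAA, 15.5% held ATTAAA and 74.2% held either, read on the transcript strand. ATTTA, a core of AU-rich elements, did not occur in the last 300 nt of Armcx2 and occurred 1 time at each Armcx5 end, and 39.2% of 12793 ends with that much transcript held it. T made up 35.0% of the last 300 nt at the Armcx2 end printed above, beside a median of 29.3% over these ends. At the downstream Armcx5 end it was 42.0%, and at the upstream end 18.7%. The other strand was not searched, and a match describes letters only.

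Armcx2 (ENSMUSG00000033436) occupies chrX:134804145-134809221 on the minus strand, with 4532 nt of exons and no overlapping gene in GENCODE vM21. Its 3′ ends were abundant in control cells and nearly missing from the libraries labelled HuD. The end at position 134804145, the last base of the annotated gene, had 538, 582 and 537 counts in the control libraries and 6, 2 and 8 counts in the libraries labelled HuD. The end at 134804147, which 3 transcripts share, had 523, 572 and 528 counts in control and again 6, 2 and 8 in HuD. The ends lie 2 nt apart, so their counting windows overlap, both numbers are largely the same reads, and the sum over ends holds most reads at both.

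Summed over both ends, Armcx2 had 66.9, 83.9 and 67.6 CPM in control and 0.891, 0.275 and 1.06 CPM in the libraries labelled HuD. Each HuD library was below each control library by more than an order of magnitude, and no library stood between the groups. In the same libraries the neuronal markers summed to 1356 to 1686 CPM in control and 1778 to 1798 CPM in HuD. Those of other cell types summed to 26.7 to 45.4 and 28.1 to 41.8 CPM. Most of the neuronal sum was Tubb3, at 1005 to 1371 CPM in control and 1399 to 1421 CPM in HuD. Of the 5 neuronal markers listed, 3 had a fitted log2 change above 0. Nefl was lower, at 19.2, 23.0 and 17.9 CPM in control and 15.4, 18.5 and 15.5 CPM in HuD (log2 change -0.28, SE 0.16). Slc18a3, the vesicular acetylcholine transporter, was also lower, at 2.78, 4.22 and 2.16 CPM in control and 0.891, 1.58 and 1.73 CPM in HuD (log2 change -1.10, SE 0.35, edgeR adjusted p = 0.665). All HuD libraries were below all control libraries for Slc18a3, as for 5.81% of genes. In total RNA the log2 change of Slc18a3 was -0.08 (SE 0.20). A link between the lower 3′ end levels of Slc18a3 and Armcx2 was not tested. The Armcx2 means were 72.8 ± 9.60 and 0.743 ± 0.414 CPM (SD, n = 3), a 98.0-fold difference, and the fitted log2 change was -6.60 (SE 0.32). With ends within 20 nt merged, the log2 change was again -6.60 (SE 0.30). These values led to the choice of the family, so no test is given for them. In bulk libraries, fewer cells with Armcx2 mRNA and less of it per cell cannot be told apart. Nor can HuD expression be told apart from the inducer, stated for HuD cells only, or from a difference between cell lines.

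No other gene of the 9621 had a lower fitted 3′ end change than Armcx2. The genes that followed were Nqo1 at -3.50, Gpsm3 at -2.55, Scube1 at -2.54 and Sdc2 at -2.32 (log2, SE 0.25 to 0.49). Of all genes, 6 were below -2 and 2 below -3. All HuD libraries lay below all control libraries for 5.81% of genes and above them for 6.23%. In control cells the Armcx2 3′ end level exceeded that of 77.9% of genes, and in HuD that of 0.125%. These levels are sums over both Armcx2 ends, which hold most reads at both, and levels from merged ends were not ranked. The smallest line of the table summed to 69 counts over the 6 libraries, a sum that Armcx2 exceeded only through the control libraries.

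**Figure D1:**
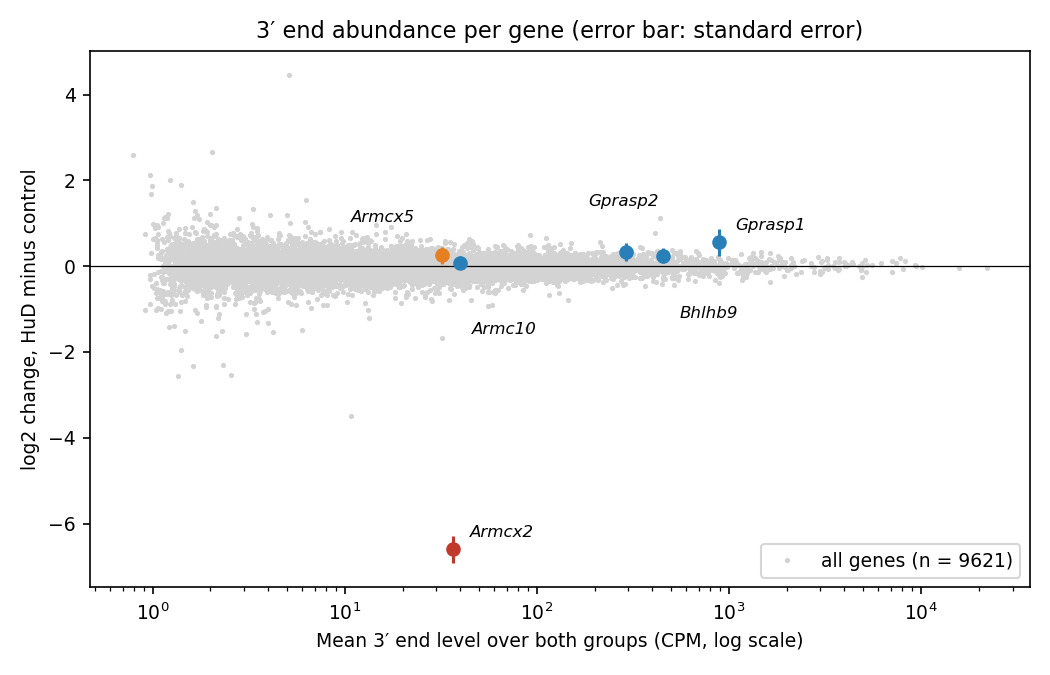
Fitted log2 change of 3′ end abundance (HuD minus control, vertical axis) against the mean level over both groups (CPM, log axis) for 9621 genes in grey, with Armcx2 in red, Armcx5 in orange and 4 relatives in blue. Bars are standard errors. Armcx2 lies at -6.60, apart from every other gene, and Armcx5 at 0.25 lies within the grey band.

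Total RNA of Armcx2 gave another picture. Armcx2 had 20 and 20 counts in the control RNA-Seq libraries and 19 and 16 in the HuD libraries, or 0.667 and 0.572 CPM against 0.646 and 0.479 CPM. The groups overlapped. The log2 change was -0.14 (SE 0.32, 95% interval -0.87 to 0.59, edgeR quasi-likelihood adjusted p = 0.9998), so its lower bound is far from the -6.60 of the 3′ ends. The difference between these changes was not tested, since the libraries were made and counted in different ways.

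Per length, Armcx2 was among the least abundant listed genes in total RNA of both conditions, at 0.137 ± 0.0149 FPKM in control and 0.124 ± 0.0260 FPKM in HuD (SD, n = 2). Only 3.40% and 2.52% of 14860 listed genes were below it. The smallest gene listed summed to 37 counts over the RNA-Seq and POL-Seq libraries, so genes with fewer counts are not among them. A change within the interval above, or a larger one, could go uncalled at this depth. The interval is not the limit of the adjusted test, which 0% of 14906 genes passed. Elavl4, at a log2 change of 1.35 (SE 0.15), was among those that did not pass.

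Polysomal Armcx2 RNA was as scarce. It had 16 and 7 counts in control and 23 and 18 in HuD, or 0.486 and 0.337 CPM against 0.619 and 0.563 CPM. Both HuD libraries were above both control libraries, as for 14.1% of all genes. The log2 change was 0.48 (SE 0.35, 95% interval -0.31 to 1.26, adjusted p = 0.969) and did not pass the test. It was 0.81 without polysomal control replicate 1 and 0.29 without replicate 2, and passed in neither.

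The ratio of polysomal to total CPM (TE, translation efficiency) of Armcx2 was 0.729 and 0.589 in control replicates 1 and 2 and 0.958 and 1.17 in HuD. The HuD ratios were above the control ratios, which 18.6% of genes also showed. The interaction of fraction and HuD, which tests this difference, was 0.62 on the log2 scale (SE 0.48, 95% interval -0.46 to 1.69, adjusted p = 1) and did not pass. With 1 library left out it ran from 0.41 (without HuD total replicate 2) to 0.95 (without polysomal control replicate 1). In control cells alone, polysomal against total Armcx2 was -0.54 (SE 0.35, 95% interval -1.33 to 0.25, adjusted p = 0.543), with both polysomal libraries below both total libraries, as for 20.1% of genes. Without polysomal control replicate 1 this was -0.87, and without replicate 2 it was -0.35.

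**Figure D2:**
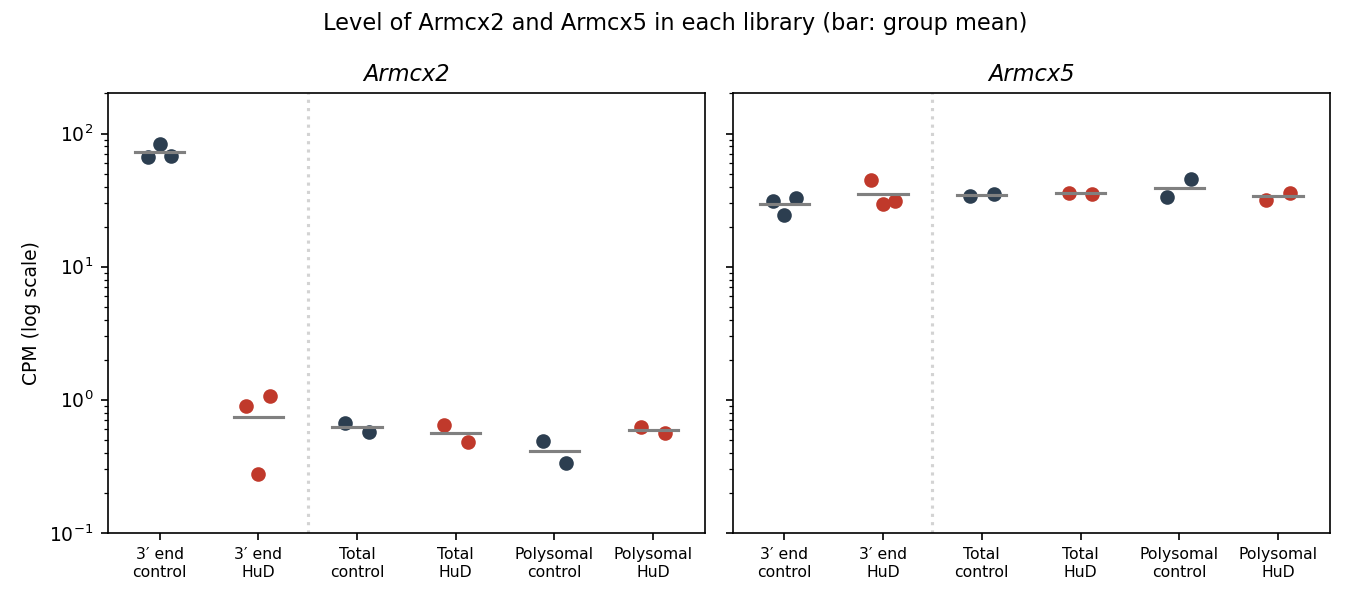
CPM (log axis) of Armcx2 and Armcx5 in each library, by assay and condition, with control in dark blue and HuD in red. Each point is 1 library and each bar a group mean. Control 3′ end libraries hold Armcx2 at 66.9 to 83.9 CPM, and all other Armcx2 points are at or below 1.06 CPM, while the Armcx5 points all lie between 24.3 and 45.4 CPM.

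The gap between 3′ ends and total RNA of Armcx2 was seen in control cells. The log2 ratio of 3′ end CPM to total RNA FPKM, with 0.5 added to both, was 6.85 for Armcx2 in control, rank 34 of 9389 genes from the top. The 3′ end CPM is again the sum over ends, with most Armcx2 reads held at both, and merged ends were not ranked. The median gene stood at 1.07, with 5% of genes below -2.20 and 5% above 3.89. In HuD the ratio of Armcx2 was 0.99, rank 4832, beside a median of 1.06. The family was chosen on the Armcx2 3′ end counts that enter both ratios, so these ranks are description only. Armcx5 had 1.79 (rank 3087) in control and 2.00 (rank 2684) in HuD.

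**Figure D3:**
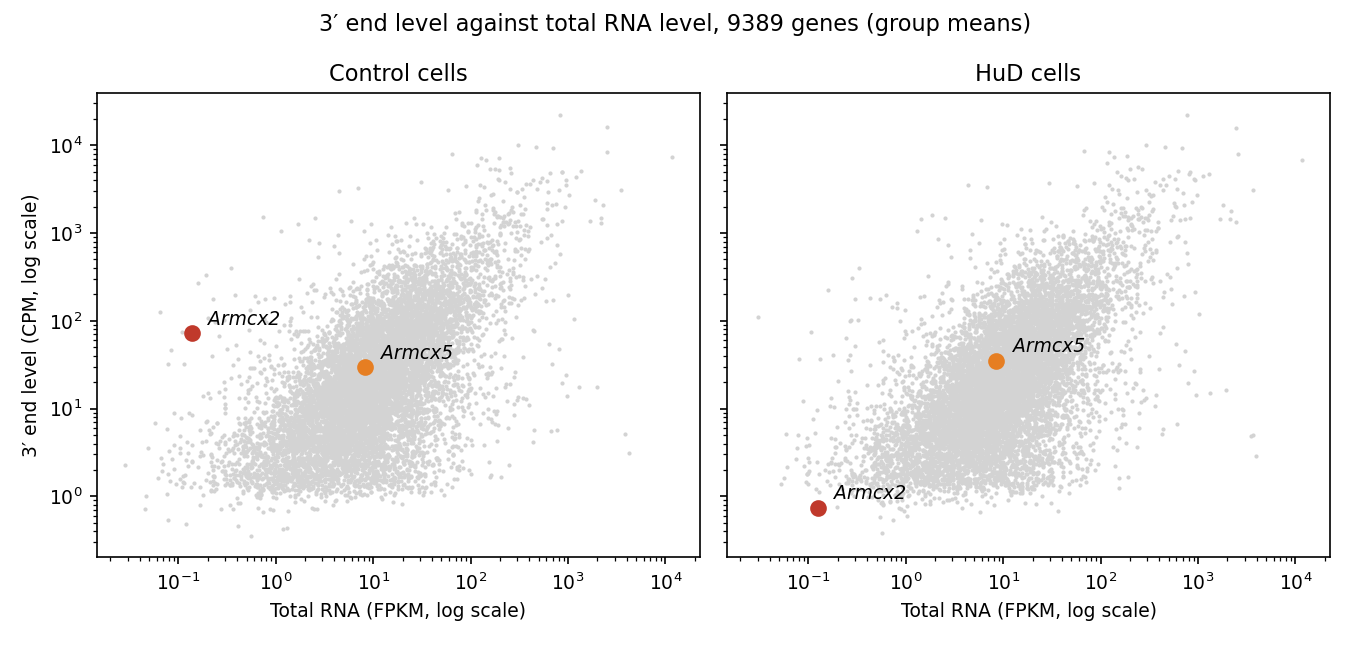
3′ end level (CPM, log axis) against total RNA level (FPKM, log axis) of 9389 genes in control cells (left) and HuD cells (right), as group means, with Armcx2 in red and Armcx5 in orange. Armcx2 stays near 0.13 FPKM on the horizontal axis and goes from 72.8 CPM above the cloud in control to 0.743 CPM at its lower edge in HuD.

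Armcx5 (ENSMUSG00000072969) occupies chrX:135742733-135747322 on the plus strand, with 4247 nt of exons. It shares 510 nt of them (12.0%) with Gprasp1 on the same strand, and reads from there cannot be told apart between the genes. Its level exceeded that of 58.2% to 64.6% of genes in every assay and condition. Its total RNA was 34.0 and 35.2 CPM in control and 36.1 and 35.4 CPM in HuD. The HuD values were higher without overlap, as for 15.1% of genes, but by little, with a log2 change of 0.05 (SE 0.14, 95% interval -0.26 to 0.35, adjusted p = 0.9998).

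Polysomal Armcx5 RNA was 33.3 and 45.4 CPM in control and 31.6 and 35.8 CPM in HuD. Control replicate 2, the shallowest of the 8 RNA-Seq and POL-Seq libraries, was the highest, and the groups overlapped. The log2 change was -0.22 (SE 0.14, 95% interval -0.53 to 0.09, adjusted p = 0.969), but -0.43 without polysomal control replicate 1 and 0.024 without replicate 2. TE ratios were 0.979 and 1.29 in control and 0.876 and 1.01 in HuD, an interaction of -0.26 (SE 0.19, 95% interval -0.70 to 0.17, adjusted p = 1), which was -0.48 and -0.025 without these same libraries. Polysomal against total Armcx5 in control was 0.18 (SE 0.14, 95% interval -0.13 to 0.49, adjusted p = 0.589). That value rested on the polysomal control libraries: without replicate 1 it was 0.39 (adjusted p = 0.0341, in a fit that called 14.4% of all genes), and without replicate 2 it was -0.07 (adjusted p = 0.981).

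Hence 0 of the 2 members passed an adjusted p of 0.05 in edgeR in any of these 4 comparisons. The share of all 14906 genes that passed was 0% for total RNA, 0% for polysomal RNA, 0% for TE and 0.174% for polysomal against total RNA in control. In the last comparison 26 genes were lower in polysomes, and 41 with the replicate number as a block. At an unadjusted p of 0.05 none of the members passed either, beside 1.78% of genes higher and 0.865% lower in total RNA, 2.29% and 1.89% in polysomal RNA, 0.409% and 0.57% in TE, and 4.45% and 6.25% in polysomal against total RNA. DESeq2 called 0 of the members.

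Armcx5 3′ ends did not go the way of those of Armcx2. Their sum was 31.0, 24.3 and 33.1 CPM in control and 44.7, 29.5 and 31.0 CPM in the libraries labelled HuD. The groups overlapped, with means of 29.5 ± 4.60 and 35.1 ± 8.38 CPM (SD, n = 3) and a log2 change of 0.25 (SE 0.20).

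The Armcx5 reads fell at a pair of ends, in contrast to the single position of Armcx2. The downstream end, at 135747322, had 363, 213 and 337 counts in control and 371, 312 and 296 in HuD. The upstream end, at 135745406, belongs to a retained-intron transcript, lies 1916 nt before the downstream end in the longer transcript, and had 129, 121 and 184 counts in control and 231, 118 and 171 in HuD. The downstream end therefore took 67.4% ± 5.54 of the reads in control and 65.9% ± 5.87 in HuD (SD, n = 3). In same-numbered pairs the HuD share was lower by 12.2 percentage points, higher by 8.79 and lower by 1.30, so it kept no direction.

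The sequence around the ends differed as well. The upstream end is followed by 19 A in 30 bases and holds no hexamer, as printed above. The part of this stretch of A in the upstream counts was not tested.

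**Figure D4:**
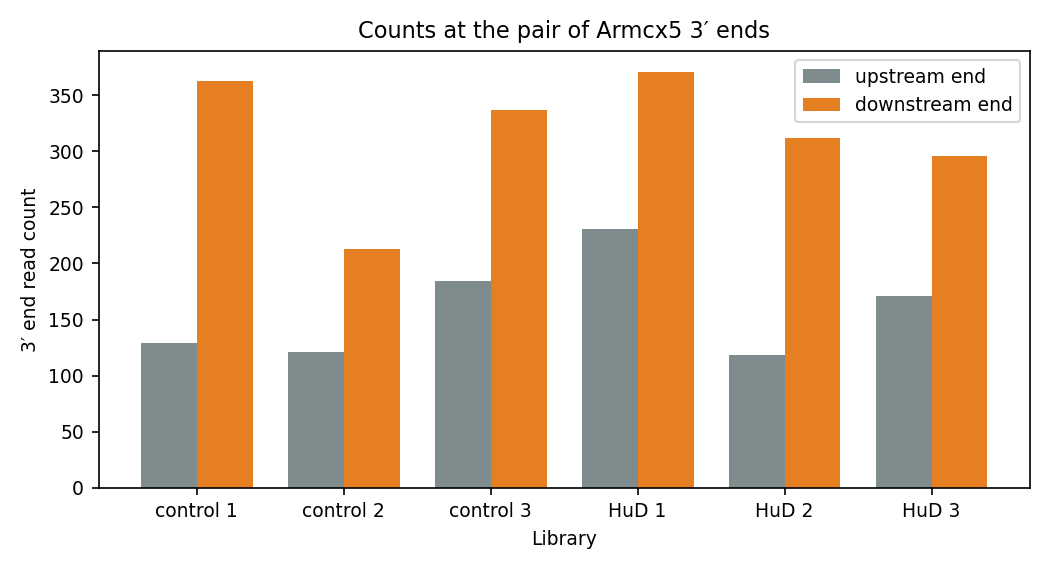
3′ end read counts (vertical axis) at the upstream end (grey) and the downstream end (orange) of Armcx5 in each of the 3 control and 3 HuD libraries. The downstream end had more counts in every library, from 213 to 371, against 118 to 231 upstream.

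Relatives of the family with arm-like repeats were present in every table but that of crosslinked sites. They were Armc10, the autosomal relative (chromosome 5), and the X-linked Gprasp1 and Gprasp2, which bind G protein-coupled receptors, and Bhlhb9. By FPKM in control total RNA (SD, n = 2) the order was Bhlhb9 (39.8 ± 7.45), Gprasp1 (23.2 ± 1.55), Gprasp2 (17.0 ± 3.29), Armc10 (9.76 ± 0.39), Armcx5 (8.15 ± 0.206) and Armcx2 (0.137 ± 0.0149). The ranges of the neighbors in this order did not overlap. Armcx2 was far below the rest, and Armcx5 was close to Armc10.

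The 3′ end changes of the relatives were 0.08 for Armc10, 0.24 for Bhlhb9, 0.33 for Gprasp2 and 0.55 for Gprasp1 (log2, SE 0.15 to 0.32). HuD was higher in all 3 same-numbered pairs for Bhlhb9, Gprasp2 and Gprasp1, as for 20.1% of genes, and in 2 of 3 for Armc10 and Armcx5. Gprasp1 had an edgeR adjusted p of 0.915 without the replicate block, where 0.0208% of genes passed as higher, and with the block a log2 change of 0.50 (SE 0.09, adjusted p = 0.0227), where 1.04% of genes passed as higher. The other relatives did not pass with it. In total RNA 0 of the 4 passed the test, with changes of -0.08 for Armc10 to 0.16 for Gprasp1. In polysomal RNA 0 of 4 passed, from -0.19 for Bhlhb9 to 0.0019 for Gprasp1, and in TE 0 of 4 passed, from -0.26 for Bhlhb9 to 0.0072 for Armc10. The median changes of all genes were -0.0039, -0.0063 and -0.0062 in these comparisons.

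Position on the X chromosome was described next, since Armcx2 lies among other genes with 3′ end counts. Within 2 Mb on either side of its 3′ end, 25 other genes had counts. Their changes ran from -0.19 (Tceal5) to 0.55 (Gprasp1) with a median of 0.05, beside 0.06 for the 324 X-linked genes and 0.00025 for all genes. None of the 25 had all HuD libraries below all control libraries, and 1, Arxes2, had them above. Over all genes the shares were 5.81% below and 6.23% above, so these counts are not a result about the window. The nearest on either side were Hnrnph2, 197 kb away at -0.13 (SE 0.15), and Gm15023, 364 kb away at -0.01 (SE 0.24). Gm15023 has the same counts as AV320801, so these are not separate measurements. No gene within this window was near the value of Armcx2. Nor was any other gene of the 9621, so this is not particular to the window.

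**Figure D5:**
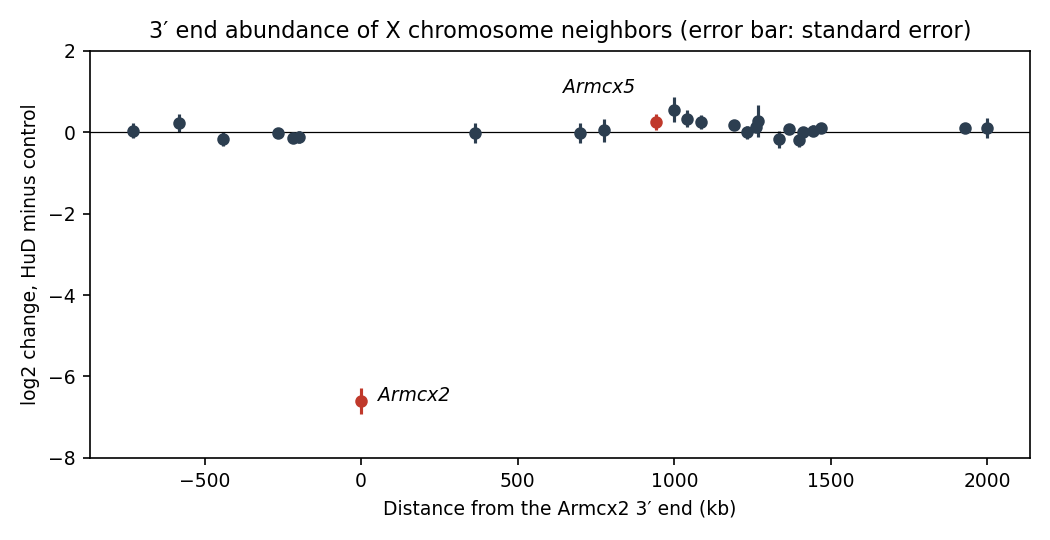
Log2 change of 3′ end abundance (HuD minus control) against distance from the Armcx2 3′ end in kb, for the 26 genes within 2 Mb, with Armcx2 and Armcx5 in red and the others in dark blue. Bars are standard errors. Armcx2 lies at -6.60 and the other 25 genes between -0.19 and 0.55.

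A list of 22 X-linked neighbors was also followed into the RNA libraries, where 18 were tested. None passed in total RNA, from -0.25 for Tceal7 and -0.17 for Wbp5 to 0.08 for Tceal1 and 0.15 for Taf7l, with a median of -0.04. None passed in polysomal RNA either, from -0.15 for Hnrnph2 and -0.12 for Bex4 to 0.23 for Taf7l and 0.62 for Arxes2 (median 0.05). Arxes2 had an edgeR adjusted p of 0.969 there, and DESeq2 called it (adjusted p = 0.0327). In TE 0 of 18 passed, with -0.14 for Hnrnph2, -0.04 for Bex4, 0.32 for Tceal7 and 0.58 for Arxes2 (median 0.09). In 3′ ends 14 were listed, from -0.19 for Tceal5 and -0.17 for Bex4 to 0.17 for Arxes2 and 0.50 for Rab9b (median 0.02).

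Genes for mitochondrial transport and dynamics, the pathway in which Armcx1 and Armcx3 act, form a list of 24, all tested. In total RNA 0 of 24 passed, with a median of 0.02. The ends of the range were Mgarp (-0.21), a mitochondrial protein of neurons, and Rhot1 (-0.15), which encodes Miro1, and on the other side Disc1 (0.25) and the kinesin heavy chain Kif5a (0.29). In polysomal RNA 0 of 24 passed (median 0.05). The lowest were the adaptor Trak2 (-0.22) and the kinesin Kif5b (-0.20), and the highest Mief2 (0.19), a fission factor, and the kinesin light chain Klc1 (0.27).

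In TE 0 of 24 passed, with a median of -0.00032, from Kif5b (-0.24) and the fusion GTPase Mfn1 (-0.17) to Klc2 (0.14) and Mief2 (0.15). At an unadjusted p of 0.05, 2 of the 24 were higher in total RNA (Klc1 at 0.23 and Kif5a at 0.29), 1 in polysomal RNA (Klc1) and 0 in TE. The shares of all genes higher at this threshold were 1.78%, 2.29% and 0.409%. In 3′ ends 22 were listed with a median of 0.06, from Mgarp (-0.32) and Opa1 (-0.31), a fusion GTPase of the inner membrane, to Kif5a (0.38) and Klc1 (0.46). Klc1 had an edgeR adjusted p of 0.402 there, and 0.0127 with the replicate block (log2 change 0.47, SE 0.08), where 1.04% of genes passed as higher. None of the list was within reach of the 3′ end value of Armcx2. That value was the lowest of all genes, so the distance from it says nothing about the list.

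In polysomal against total RNA of control cells, 0 of the 4 relatives passed (0.04 for Armc10 to 0.33 for Bhlhb9), 0 of the 18 X-linked neighbors (-0.21 for Rpl36a and -0.06 for Tceal7 to 0.23 for Hnrnph2 and 0.65 for Taf7l) and 0 of the 24 mitochondrial genes (-0.38 for Mief2 and -0.28 for Rhot2 to 0.28 for Opa1 and 0.36 for Kif5b). The medians were 0.17, 0.09 and 0.04, beside 0.0090 for all genes. At an unadjusted p of 0.05, 2 mitochondrial genes were higher (Dnm1l and Opa1) and 1 lower (Mief2). The shares of all genes were 4.45% higher and 6.25% lower. When polysomal control replicate 1 was left out, 2 relatives, 5 X-linked neighbors and 7 mitochondrial genes passed, and over all genes 996 were higher and 1149 lower.

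The table of sites crosslinked to HuD held 5153 rows, each with at least 6 covering reads and 3 deletions in HuD cells, pooled over replicates. No Armcx gene was among its 1304 protein coding genes. The part of the low Armcx2 level, 0.137 FPKM in control total RNA, in its absence was not tested. The share listed was 8.95% of the 14924 genes with RNA counts, so the absence of 6 genes is not a result about them. Of the relatives 0 of 4 were listed, of the mitochondrial genes 2 of 24 (Kif5b with 33 reads and Mgarp with 62) and of the X-linked neighbors 8 of 22, with up to 1704 reads for Hnrnph2. The depth of the CRAC libraries is unknown here, and absence from the table shows only that no site reached its limits.

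By Pearson correlation of log2 CPM over the 8 RNA-Seq and POL-Seq libraries, the genes most like Armcx2 were Arhgap27 (0.967), Prr19 (0.966), Vps37d (0.965), Acads (0.964) and Gm10030 (0.964), of 14905 compared. They share libraries and depth with it, and Armcx2 had 7 to 23 counts in each library. A correlation of 0.9 or more was reached by 47 genes. No likeness beyond this is read from the values.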

How the data were processed

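Members and gene lists were chosen with earlier results of these data known. Total and polysomal values are counts per gene that the authors made with STAR 2.5.3a on GRCm38.p4 with Gencode M6 and deposited unscaled. For 3′ ends (QuantSeq REV), the authors deposited counts of reads that start near known polyadenylation sites, 1 line per transcript, and lines with the same coordinate were taken once and summed per gene. For CRAC, the authors deposited pooled coverage (signal), deletion counts, a combined p-value and a sequence score per site, from TopHat2 2.0.14. Of these the presence of a gene and its coverage were used.

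Counts were fitted in R 4.3.3 with edgeR 4.0.16 (TMM, filterByExpr, quasi-likelihood test, Benjamini-Hochberg over all genes, threshold 0.05). All 8 RNA-Seq and POL-Seq libraries entered 1 fit, and the 6 libraries of 3′ ends another. SE is the absolute log2 change over the square root of F. FPKM used exon lengths of GENCODE vM21. Named are the members, Elavl4, the 2 highest and 2 lowest genes of each list (where none passed) and the 5 genes most correlated with Armcx2. Genes named beyond this rule (Nqo1, Gpsm3, Scube1, Sdc2, Gm15023 and AV320801, and list members at an unadjusted p under 0.05) were chosen after their values were seen.

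The labels give the groups the same replicate numbers. Deviations from the group means correlated in every same-numbered pair (r 0.188 to 0.388 for RNA-Seq and POL-Seq, 0.400 to 0.657 for 3′ ends). A fit with the replicate number as a block was therefore run beside the main one. In groups of 2 the deviations mirror each other, so replicates 1 and 2 of RNA-Seq and POL-Seq give the same r and are not separate evidence. Replicates of RNA-Seq, POL-Seq and 3′ ends are stated to be biological. Alternatives were RLE scaling, no filter, DESeq2 1.42.0, only the libraries compared, merging of ends within 20 nt, and leaving out each library. The fits were tested on simulated data, where 99.5% to 100% of 200 genes changed 4-fold were recovered. Those genes were drawn from well-counted genes, above the counts of Armcx2 in RNA-Seq and POL-Seq, and no pairing of replicates was simulated. The recovery therefore does not apply to Armcx2 in those libraries. Tables and figures used Python 3.11.15, pandas 2.3.3 and matplotlib 3.10.9.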

Additional observations from a re-analysis of the deposited data

How the results depend on the processing

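The 3′ end change of Armcx2 kept its direction under all 11 alternatives (-6.97 to -6.20 when 1 library was left out, and -6.59 with the replicate block), as did that of Armcx5 (0.04 to 0.36 when 1 library was left out). The family was chosen on these Armcx2 values, so their kept direction is no further support for the change. With ends within 20 nt merged, Armcx2 has 1 end, and the difference in the share of its most used end between HuD and control is 0 percentage points, against -0.52 with the ends apart. In total RNA, polysomal RNA and TE, 0 members passed under every alternative run, the replicate block included (log2 total change of Armcx2 -0.36 to 0.066 and of Armcx5 0.02 to 0.07 with 1 library left out). In polysomal against total RNA of control cells 0 to 1 members passed with 1 library left out, the 1 being Armcx5 without polysomal control replicate 1, where 14.4% of all genes passed. Directions turned without 1 library for Armcx2 in total RNA (0.066 without HuD replicate 2), for Armcx5 in polysomal RNA (0.024 without control replicate 2, -0.43 without replicate 1) and for Armcx5 in polysomal against total RNA (-0.065 without polysomal control replicate 2, 0.39 without replicate 1), the 0.39 alone past the threshold. A group left with 1 library is assumed to vary like the others. The block changed no call of a member in RNA-Seq or POL-Seq, and in 3′ ends, where 2 genes were higher and 3 lower without it, it gave 100 and 117. The restriction to the 4 libraries compared was not run for TE, which needs all 8. Depth limits Armcx2 in RNA-Seq and POL-Seq, with 7 to 23 counts per library, and the groups of 2 limit every TE value.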
